A study of Mus musculus with 8 samples.

Results

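CD8+ T cells that carried LAG3 on their surface were compared with and without the costimulatory receptor 4-1BB. The cells came from B16.SIY.dsRed tumors, a mouse melanoma line that expresses the model antigen SIY and a red fluorescent protein. By the titles, 2 of the 8 arrays of the study held CD8+ 4-1BB+ LAG3+ cells (called double-positive here) and 2 held CD8+ 4-1BB-negative LAG3+ cells (called LAG3+), with 1 array of each from experiment 1 and 1 from experiment 2. The other 4 arrays held CD8+ cells with none of 4-1BB, LAG3 and PD-1 (triple-negative) and cells with PD-1 alone (PD-1+). All cells came from untreated female C57BL/6 mice on day 14 of tumor growth. The design text gives tumor cells injected into both flanks and 10 mice whose tumors were pooled, without saying whether 10 is the number for each experiment, so an array stands for a pool and not for an animal. The labels do not say whether the LAG3+ and double-positive cells carried PD-1, and the tumor line is a transplanted model with an introduced antigen.

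4-1BB (gene Tnfrsf9, also CD137) is a receptor of the TNF receptor superfamily that T cells put on their surface after antigen stimulation. Bound by its ligand, it recruits TRAF adaptor proteins, which lead to NF-κB and MAP kinase signalling, and it is known for supporting the survival and effector function of CD8+ T cells. LAG3 is an inhibitory receptor that binds MHC class II and other ligands, and in tumors it marks T cells that have met antigen repeatedly. The series' title sets the cells in the context of T cell dysfunction within the tumor, and this comparison asks which transcripts go with 4-1BB when LAG3 is present on both populations.

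The mouse Tnfrsf9 gene has 2 annotated start sites in RefSeq (GRCm38.p6), and the bases before the second are shown because they hold motifs of the transcription factors that act below such receptors. Capitals mark a match to the NF-κB (κB) consensus and, closest to the start site, the AP-1 motif TGANTCA. The stretch lies at chr4:150927749-150927998 on the + strand and ends at the base before the start site.
Tnfrsf9, second start site: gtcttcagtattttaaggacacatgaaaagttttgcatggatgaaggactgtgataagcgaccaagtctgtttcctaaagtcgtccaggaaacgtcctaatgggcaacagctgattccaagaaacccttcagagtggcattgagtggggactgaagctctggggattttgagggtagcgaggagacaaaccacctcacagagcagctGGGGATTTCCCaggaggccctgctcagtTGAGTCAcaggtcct
The κB letters hold 2 matches that overlap, 32 bases before the start site at the nearest, and the AP-1 match lies 8 bases before it and overlaps neither. On both strands, the κB consensus was found in 3.9% and the AP-1 motif in 6.75% of the 32851 mouse promoter stretches of the same 250 bases. The 250 bases before the first start site (chr4:150919905-150920154, + strand) and before the start of Tnfrsf4 (chr4:156013445-156013694, + strand) held no match to either motif. The array does not show which start site was used.

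Intensities are given on a log2 scale after background correction and quantile normalization, on which a probe without signal lies near 4.1. Pairs of values are experiment 1 then experiment 2. Detected probes numbered 8493 and 7282 of 25697 in LAG3+ and 8671 and 7339 in double-positive cells, with mean raw signals of 174 and 125.9 against 183.4 and 141.7. A gene was tested if its probe was detected on at least 2 of the 8 arrays, which left 7893 genes. The error after each ± is limma's standard error for that change, with 2 arrays per population and a spread shared by all 8 arrays. The PD-1+ arrays stood apart from the others and from each other (r = 0.771 between them), and they enter this comparison through that shared spread, the normalization and the choice of tested genes, of which 7610 were left without them.

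LAG3+ and double-positive arrays of the same experiment correlated about as closely as replicate arrays did. Across genes r was 0.962 in experiment 1 and 0.913 in experiment 2, against 0.928 between the 2 LAG3+ arrays and 0.934 between the 2 double-positive arrays. In limma's test, 0 of 7893 genes (0.0%) were called higher and 0 (0.0%) lower at an adjusted p under 0.05, and the smallest adjusted p was 0.845. Without adjustment, 208 genes had a limma p under 0.05 (2.64%), 97 of them higher (1.23%) and 111 lower (1.41%) in double-positive cells. That share is below the 0.05 that the threshold itself gives when no gene differs. Without both PD-1+ arrays the fit again called 0 genes, with a smallest adjusted p of 0.446 and 335 genes at an unadjusted p under 0.05. An exact test of 2 arrays against 2 cannot go below p = 0.333. No gene below is therefore a called difference, and the comparison rests on values that lay on the same side in both experiments.

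The same direction in both experiments was seen for 4207 genes (53.3%), close to an even split between same and opposite directions. Of these, 2203 were higher (27.9% of all genes) and 2004 lower (25.4%) in double-positive cells. A change of at least 2-fold in both experiments was seen for 58 genes in the higher direction (0.735%) and 64 in the lower (0.811%). Both double-positive arrays exceeded both LAG3+ arrays for 1361 genes (17.2%) and lay under both for 1126 (14.3%). If the 4 arrays were ordered at random, the share without overlap, counting both directions, would be 0.333. The changes of experiment 1 and experiment 2 correlated weakly across genes (r = 0.126), and genes are not independent replicates. Their standard deviation was 0.50 in experiment 1 and 0.77 in experiment 2. Among the 4677 genes detected on all 4 arrays, 55.6% had the same direction in both, 35 were at least 2-fold higher (0.748%) and 31 at least 2-fold lower (0.663%). Detection itself differed for 147 genes found on both double-positive arrays and neither LAG3+ array, and for 116 the other way round.

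**Figure D1:**
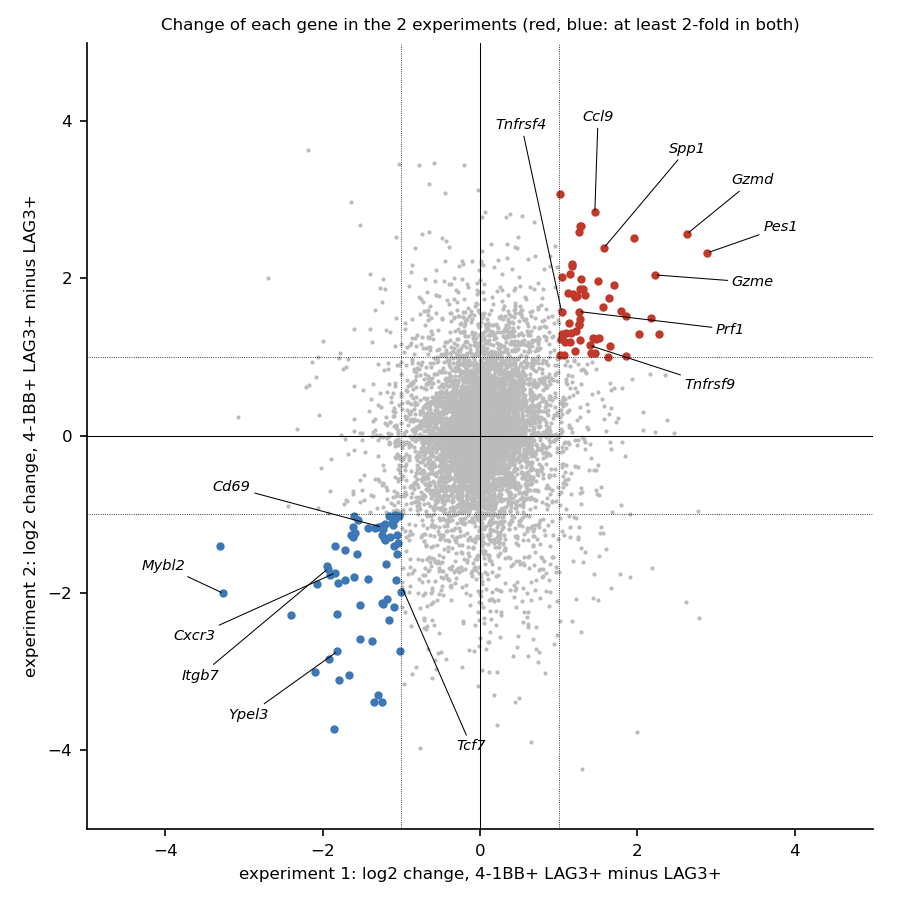
Each point is 1 of 7893 genes, with its log2 change from LAG3+ to double-positive cells in experiment 1 on the x axis and in experiment 2 on the y axis. Red points are the 58 genes at least 2-fold higher in both experiments and blue points the 64 at least 2-fold lower, dotted lines mark 2-fold, and most genes lie in a cloud around 0 with little relation between experiments (r = 0.126).

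The transcript of the receptor that split the populations followed the sort. Tnfrsf9 stood at 7.57 and 7.69 in LAG3+ and at 8.96 and 8.84 in double-positive cells. The groups did not overlap, and the change was 1.27 ± 0.50 (2.41-fold, limma adjusted p = 1.0). A second, dimmer Tnfrsf9 probe read 6.45 and 5.92 against 8.17 and 8.06, a difference of 1.93. Triple-negative cells stood at 4.71 and 5.16 by the brighter probe, below the LAG3+ cells that were sorted as 4-1BB-negative. The PD-1+ cells, 4-1BB-negative as well, stood at 6.66 and 8.16, so their array of experiment 2 lay above both LAG3+ arrays. By the dimmer probe they were at 7.22 and 5.93.

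OX40 (Tnfrsf4), a costimulatory receptor close to 4-1BB in function and also used as a marker of recent stimulation, showed a change of similar size. It measured 7.34 and 7.33 in LAG3+ and 8.38 and 8.91 in double-positive cells, a change of 1.31 ± 0.40 (2.47-fold, limma adjusted p = 1.0). GITR (Tnfrsf18), the third of these activation-induced receptors, was at 6.82 and 6.81 against 7.56 and 7.06, a change of 0.49 ± 0.39 with a small gap between the groups. CD27, the costimulatory receptor already present on resting T cells, overlapped between the groups, with 10.85 and 10.23 against 10.42 and 10.46. Of the 10 tested members of the TNF receptor family, 3 were higher and 2 lower in both experiments, with a median change of 0.03, against 0.01 over all genes. With 1 array left out it lay between 0.00 and 0.17.

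Of the remaining genes of the sort, Lag3 and Pdcd1 overlapped between the populations. Lag3 was at 9.39 and 8.99 in LAG3+ and at 9.12 and 9.56 in double-positive cells, with overlapping values and a change of 0.15 ± 0.36. Pdcd1, the gene of PD-1, was dim and overlapped as well, with 4.98 and 4.97 against 4.94 and 5.26. The T cell receptor chain Cd3e was bright in both, with 11.31 and 11.71 against 11.06 and 11.32. The CD8 beta chain Cd8b1 was bright too, and it was lower on both double-positive arrays (12.54 and 12.40 against 12.10 and 12.22, a change of -0.31 ± 0.31), while a second Cd8b1 probe overlapped. Cd4 was detected on 0 of these 4 arrays, and the single Cd8a probe gave no signal above background anywhere (0 of 8), which leaves this transcript unmeasured.

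**Figure D2:**
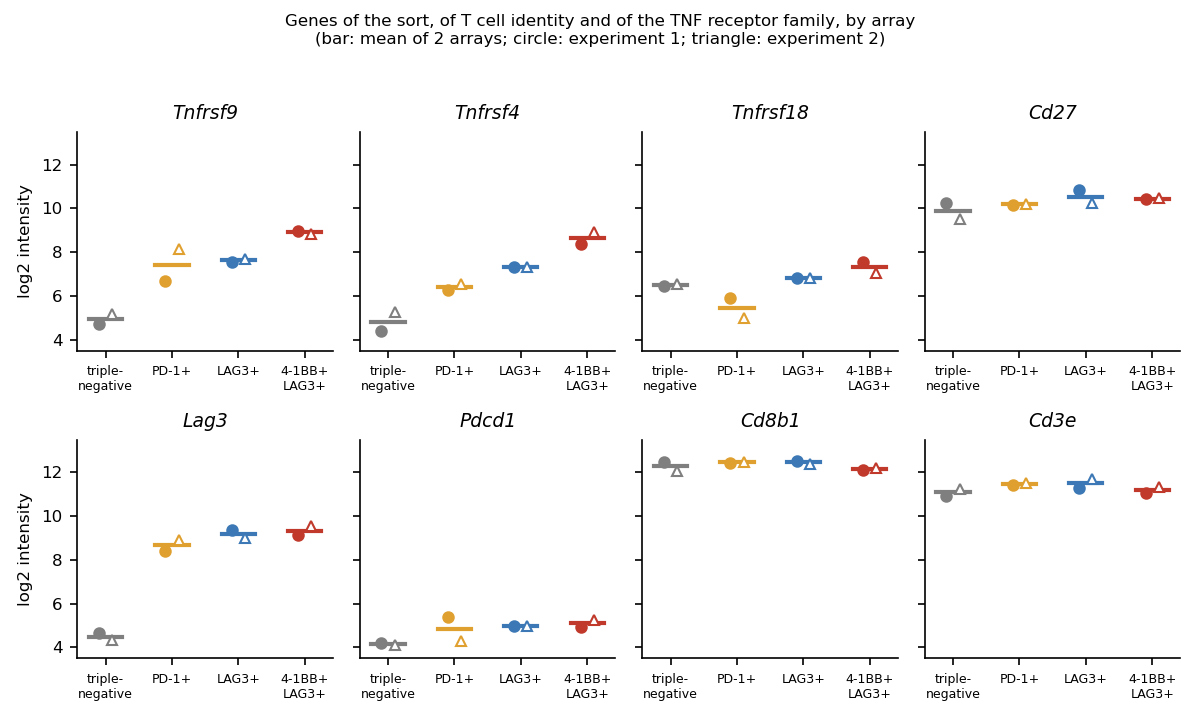
Log2 intensity (y axis) of 8 genes on each array of the 4 sorted populations (x axis), with circles for experiment 1, triangles for experiment 2 and a bar at the mean of the 2 arrays. Tnfrsf9 and Tnfrsf4 lay higher on both double-positive arrays than on both LAG3+ arrays, while Lag3, Pdcd1 and Cd27 overlapped between these populations.

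Among the ligands of the TNF family, 8 were tested, 2 were higher and 3 lower in both experiments, and the median change was -0.38. Leaving out 1 array at a time moved this median between -0.62 (without the triple-negative array of experiment 2) and -0.15 (without the double-positive array of experiment 2). In the first of these settings Tnfsf11 was no longer tested, so the list itself was shorter. CD70, the ligand of CD27, was the member with the highest change, at 5.39 and 4.47 in LAG3+ and 6.4 and 7.55 in double-positive cells (2.04 ± 0.95, 4.12-fold). Lymphotoxin beta (Ltb) was at 6.05 and 6.32 against 5.48 and 5.62, and lymphotoxin alpha (Lta) changed by -0.64 ± 0.76. LIGHT (Tnfsf14) changed by -1.43 ± 0.65, nearly all of it in experiment 2 (-0.14 and -2.72).

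The TRAF and NF-κB list, which holds the signalling steps below 4-1BB, was evenly divided. Of 22 tested genes, 8 were higher and 9 lower in both experiments, with a median change of -0.08 that lay between -0.14 and 0.05 with 1 array left out. Nfkb2, the precursor subunit of the noncanonical NF-κB pathway and itself a target of that pathway, was at 5.77 and 5.66 in LAG3+ and 6.41 and 6.94 in double-positive cells. Its change was 0.96 ± 0.40. Traf1, an adaptor that binds 4-1BB directly, changed by 0.14 ± 0.51, and Icam1, an adhesion molecule induced by NF-κB, by 0.22 ± 0.69. On the other side, the NF-κB inhibitor A20 (Tnfaip3) was at 9.19 and 9.14 against 8.58 and 8.69, a change of -0.53 ± 0.44. Traf6 and Ikbkg had lower values by the brightest probe (-0.69 ± 0.84 and -1.02 ± 0.42), but another probe of each went the other way (2.04 and 0.62), so neither has a settled direction.

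Genes were ranked by the smaller of their 2 within-experiment changes, so that a gene had to differ in both experiments to rank high. The granzyme gene Gzmd, which encodes a serine protease of cytotoxic granules, was among the first by this ranking. It measured 8.57 and 7.28 in LAG3+ and 11.21 and 9.85 in double-positive cells, so the double-positive array was higher by 2.63 and 2.57 within the experiments (2.60 ± 1.07, 6.07-fold). Its neighbour Gzme was at 5.85 and 4.86 against 8.08 and 6.90 (2.13 ± 0.61, 4.39-fold), and a second Gzme probe gave a change of 1.95. A second, dim Gzmd probe gave 0.88. Both genes were near the level of no signal in triple-negative cells, with mean values of 4.21 for Gzmd and 4.20 for Gzme.

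Gzmd and Gzme lie close together on chromosome 14 and are near-copies of each other, which their upstream sequences show. The 250 bases before each start site are printed with capitals where the aligned letters differ.
Gzmd (chr14:56132594-56132843, - strand): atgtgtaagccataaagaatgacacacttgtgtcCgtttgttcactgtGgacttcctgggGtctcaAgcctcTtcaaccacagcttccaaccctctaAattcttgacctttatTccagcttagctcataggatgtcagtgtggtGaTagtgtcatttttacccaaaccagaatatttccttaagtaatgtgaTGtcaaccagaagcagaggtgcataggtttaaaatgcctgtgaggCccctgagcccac
Gzme (chr14:56120626-56120875, - strand): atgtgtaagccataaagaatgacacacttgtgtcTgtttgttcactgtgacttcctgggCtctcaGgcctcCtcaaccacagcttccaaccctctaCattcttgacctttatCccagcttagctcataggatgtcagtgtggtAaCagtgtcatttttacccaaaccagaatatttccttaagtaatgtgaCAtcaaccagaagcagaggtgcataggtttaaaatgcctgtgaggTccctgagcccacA
Over 251 aligned positions, 238 were identical (94.8%), 11 were substituted and 2 were gapped, and neither stretch held the κB or AP-1 motif. The transcripts of such near-copies can bind each other's probes, and probe sequences were not used here, so the values are uncertain as to which granzyme of this cluster they come from. Gzmg and Gzmn, of the same cluster, were higher in both experiments as well, with 4.57 and 4.79 against 6.92 and 5.57 for Gzmg (1.56 ± 0.47) and a change of 0.69 ± 0.37 for Gzmn. Without the double-positive array of experiment 1 these changes were 0.84 and 0.38.

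Perforin (Prf1), the pore-forming protein released with granzymes, was at 9.79 and 8.29 in LAG3+ and 11.05 and 9.87 in double-positive cells. The change of 1.42 ± 0.69 (2.67-fold) compares with 1.37 on a second probe. It was 0.66 without the LAG3+ array of experiment 2 and 0.83 without the double-positive array of experiment 1. In each experiment the double-positive array was higher, and the lowest double-positive value lay just above the highest LAG3+ value. Of 20 tested granule genes, 8 were higher and 5 lower in both experiments (40% and 25%), with 3 at least 2-fold higher and a median change of 0.20. The list's median was -0.03 in experiment 1 and 0.53 in experiment 2, and it reached 0.41 without the LAG3+ array of experiment 1 and 0.31 without the double-positive array of experiment 1. Members with lower values included granzyme K (Gzmk, -0.76 ± 0.48), cathepsin W (Ctsw, -0.61 ± 0.30) and the lysosomal protein Lamp1 (-0.95 ± 0.58). The general granule genes Nkg7 (0.11 ± 0.35) and Rab27a (0.30 ± 0.45) went opposite ways in the 2 experiments. The probe of granzyme B did not enter the test.

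The secreted mediators showed a similar division between a few high members and the rest. Osteopontin (Spp1), a secreted phosphoprotein with cytokine functions, was at 8.89 and 7.31 in LAG3+ and 10.47 and 9.70 in double-positive cells (1.98 ± 0.78, 3.95-fold). The chemokine Ccl3 was at 7.86 and 6.67 against 8.68 and 8.79, a change of 1.47 ± 0.44. Ccl9 was at 6.04 and 4.11 against 7.50 and 6.95, a change of 2.15 ± 0.95 that rests in part on a LAG3+ array at the level of no signal. Without that LAG3+ array, of experiment 2, the changes were 1.17 for Spp1, 0.87 for Ccl3 and 1.19 for Ccl9. Ccl4, a chemokine close to Ccl3, was bright in both populations and changed by 0.47 ± 0.37, while Ccl5 changed by -0.60 ± 0.41. Interferon gamma (Ifng), the main cytokine of effector CD8+ T cells, was at 10.31 and 10.97 against 10.85 and 11.06, a change of 0.31 ± 0.41. Of 9 tested cytokines 2 were higher and 3 lower in both experiments, and of 7 tested chemokines 3 and 2. Spp1, Ccl9 and Ccl3 are also made by macrophages. Over the 7 tested macrophage markers the median level was 4.91 and 4.66 in LAG3+ and 4.55 and 4.30 in double-positive cells, close to the level of no signal. Among them, Lyz1 stood well above that level in both populations, with a change of -1.67. The part of macrophage RNA in these 3 changes was not tested.

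Il1r2, a decoy receptor that binds interleukin 1 without signalling, was the cytokine receptor with the highest change. It measured 7.25 and 8.43 in LAG3+ and 9.18 and 9.16 in double-positive cells (1.33 ± 0.52, 2.51-fold), against 4.27 on average in triple-negative cells. Without the LAG3+ array of experiment 1 the change was 0.74. The chains of the interleukin 2 receptor were close in both populations, with changes of 0.06 ± 0.36 for Il2rb and 0.19 ± 0.30 for Il2rg, and Il2ra was detected on 1 of the 4 arrays. The interleukin 7 receptor (Il7r), which supports naive and memory cells, was at 6.12 and 5.67 against 4.92 and 5.02, and the shared signalling chain of the interleukin 6 family (Il6st) at 5.30 and 5.65 against 4.49 and 4.80. Over 19 tested cytokine receptors, 4 were higher and 5 lower in both experiments, with a median of 0.00. Inside the cell, feedback and JAK-STAT genes were lower more often than higher, 9 against 2 of 17 (52.9% and 11.8%, against 25.4% and 27.9% of all genes), with a median of -0.12. That median was -0.30 without the LAG3+ array of experiment 2, and -0.25 and -0.07 without the double-positive array of experiment 1 and of experiment 2. With arrays scaled to equal medians it was 0.00, against 0.12 over all genes. Socs3, an inhibitor of cytokine signalling, was at 8.31 and 8.26 against 6.89 and 7.09, a change of -1.30 ± 0.42, and Jak2, a kinase bound to cytokine receptors, changed by -1.21 ± 0.62 (another probe -0.48).

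**Figure D3:**
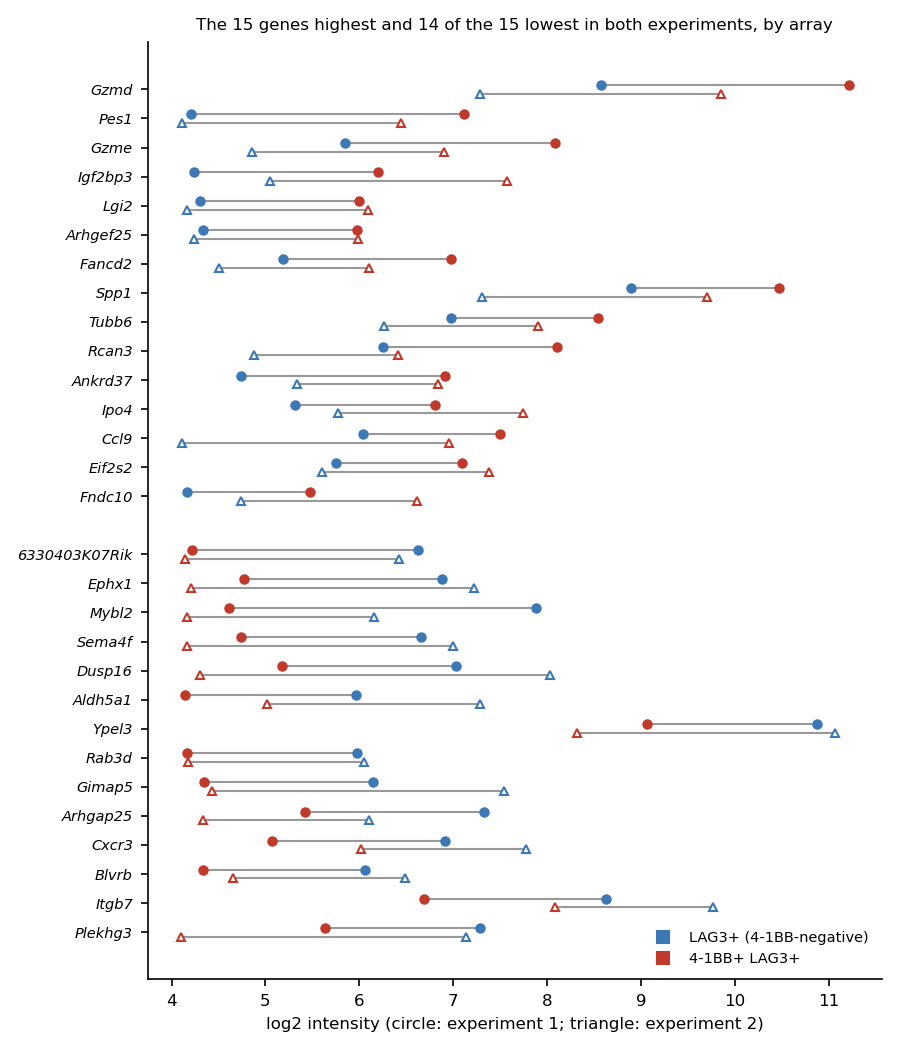
The 15 genes highest and 14 of the 15 lowest by the smaller of the 2 within-experiment changes, with log2 intensity on the x axis, LAG3+ cells in blue, double-positive cells in red, experiment 1 as circles and experiment 2 as triangles, and grey lines joining the arrays of 1 experiment. The ranking placed the populations apart, and several genes such as Pes1, Lgi2, 6330403K07Rik and Rab3d lay near 4.1, the level of no signal, on both arrays of 1 population.

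The 15 genes ranked highest were Gzmd, Pes1, Gzme, Igf2bp3, Lgi2, Arhgef25, Fancd2, Spp1, Tubb6, Rcan3, Ankrd37, Ipo4, Ccl9, Eif2s2 and Fndc10. Their changes ran from 1.56 to 2.61, and their limma adjusted p from 0.845 to 1.0. Pes1, a nucleolar protein needed to build the large ribosomal subunit, was not detected in LAG3+ cells (4.21 and 4.11). It measured 7.11 and 6.44 in double-positive cells, at least 4.98-fold higher within the main normalization. Lgi2 was not detected in LAG3+ cells either and was at least 3.01-fold higher on the same terms, with 6.00 and 6.09 in double-positive cells. These bounds depend on the processing. Under the alternative settings the log2 change went as low as 1.02 for Pes1 and 0.6 for Lgi2. Fancd2, a protein of DNA crosslink repair, was at 5.19 and 4.51 against 6.98 and 6.10, and Tubb6, a beta-tubulin, at 6.98 and 6.26 against 8.54 and 7.90. Eif2s2, the beta subunit of translation factor eIF2, was at 5.75 and 5.60 against 7.09 and 7.38, though a second probe changed by 0.22. Igf2bp3, an RNA-binding protein, likewise had a second probe that changed by 0.08. Rcan3, a regulator of the phosphatase calcineurin, changed by 1.69 ± 0.73, with 1.32 on a second probe. Leaving out 1 array took Rcan3 to 0.81 (double-positive, experiment 1), 1.01 (LAG3+, experiment 2) or 2.54 (double-positive, experiment 2), and Fndc10 from 1.59 to 1.05 (double-positive, experiment 2).

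Of the 15 genes ranked lowest, 14 are named here: 6330403K07Rik, Ephx1, Mybl2, Sema4f, Dusp16, Aldh5a1, Ypel3, Rab3d, Gimap5, Arhgap25, Cxcr3, Blvrb, Itgb7 and Plekhg3. Their changes ran from -2.79 to -1.78. Cxcr3, the receptor for the interferon-induced chemokines, was at 6.91 and 7.77 against 5.07 and 6.02 (-1.79 ± 0.45). Itgb7, the beta chain of gut-homing and epithelial-binding integrins, was at 8.63 and 9.77 against 6.69 and 8.08. Its partner Itgae (CD103) changed by -1.12 ± 0.95, and by -1.66 to -0.48 with 1 array left out. Other Itgae probes changed by -1.06, -0.10 and -0.04, the last 2 of them near the level of no signal in both populations and opposite in the 2 experiments. The MAP kinase phosphatase Dusp16 (-2.79 ± 0.72, another probe -0.59) and Gimap5, a GTPase needed for lymphocyte survival (-2.45 ± 0.61, another probe -0.41), were lower by all probes detected, while Ypel3 had a second probe at 0.18. Mybl2, a transcription factor of dividing cells, was at 7.88 and 6.16 against 4.61 and 4.16. Without the LAG3+ array of experiment 1 the change of Mybl2 went from -2.63 to -1.70 and that of Arhgap25 from -1.84 to -1.18, and without the double-positive array of experiment 1 that of Itgb7 went from -1.81 to -1.12.

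**Figure D4:**
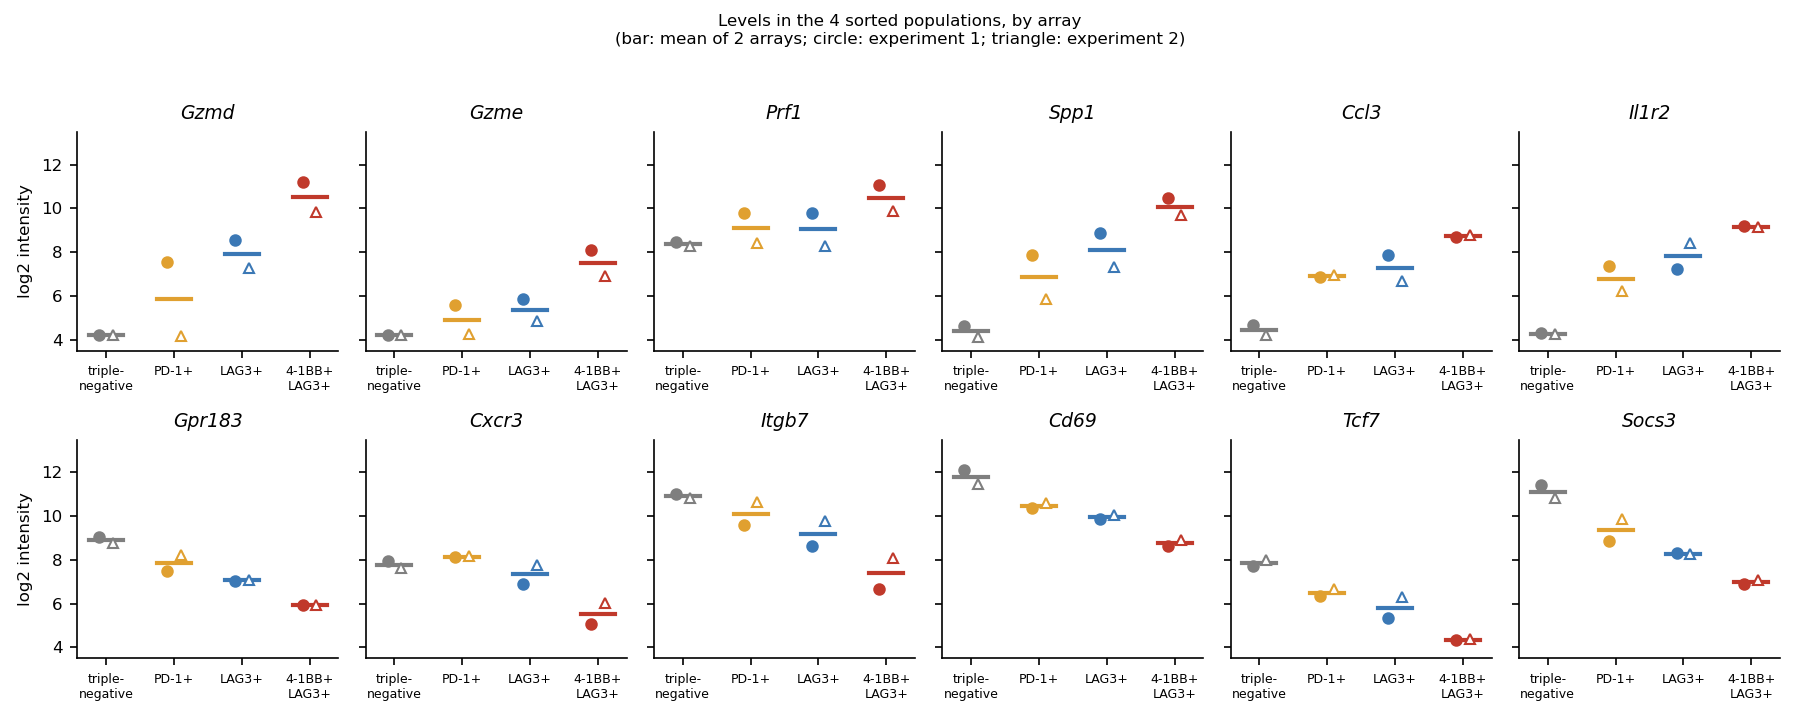
Log2 intensity (y axis) of 12 genes on each array of the 4 populations (x axis), with circles for experiment 1, triangles for experiment 2 and bars at the mean of 2 arrays. The upper row shows 6 genes that were higher and the lower row 6 genes that were lower on both double-positive arrays than on both LAG3+ arrays. Cd69, for example, was at 8.63 and 8.89 in double-positive cells against 9.89 and 10.05 in LAG3+ cells.

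Cxcr3 belongs to the naive and memory list, the list with the lowest median of those with at least 5 tested genes. Of its 22 tested genes, 15 were lower and 1 was higher in both experiments (68.2% and 4.55%, against 25.4% and 27.9% of all genes). The median change was -0.59, with -0.66 in experiment 1 and -0.51 in experiment 2, and it lay between -0.99 and -0.29 under all alternative settings. TCF-1 (Tcf7), the transcription factor of stem-like and memory T cells, was at 5.35 and 6.29 in LAG3+ and at 4.35 and 4.37 in double-positive cells, near the level of no signal (-1.46 ± 0.40). Ccr7, the receptor that guides naive cells to lymph nodes, was at 6.65 and 8.45 against 5.56 and 7.44, so it was lower within each experiment by about the same amount (-1.09 and -1.01) although the groups overlapped. With 1 array left out its change ran from -1.98 to -0.11. Txnip, a brake on glucose uptake, was at 8.44 and 7.83 against 7.34 and 6.85, and Btg1, an antiproliferative gene of quiescent cells, at 9.94 and 9.76 against 9.16 and 8.97. Klf2, which helps to keep T cells quiescent, changed by -0.54 ± 0.47. Actn1 was the member that was higher in both experiments, by 0.15 ± 0.30.

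Homing and adhesion genes were evenly divided, with 5 of 18 higher and 5 lower in both experiments, but 3 were at least 2-fold lower. Besides Itgb7 these were Cd69, an early activation antigen that holds T cells in tissue, at 9.89 and 10.05 against 8.63 and 8.89 (-1.21 ± 0.34), and Gpr183, an oxysterol receptor for migration in lymphoid tissue, at 7.05 and 7.07 against 5.95 and 5.94 (-1.12 ± 0.35). Integrin beta 1 (Itgb1) was at 7.18 and 8.06 against 6.28 and 6.81. Cd44, a marker of antigen experience, and the tissue-residency receptor Cxcr6 overlapped between the groups, with changes of 0.09 ± 0.32 and -0.10 ± 0.53.

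Inhibitory receptors other than Lag3 and Pdcd1 went both ways, more often lower than higher. TIM-3 (Havcr2) was at 9.39 and 8.19 in LAG3+ and 9.71 and 9.56 in double-positive cells, a change of 0.85 ± 1.30, with 0.94 on a second probe. Without the LAG3+ array of experiment 2 it was 0.24. CTLA-4 was at 10.12 and 10.84 against 9.21 and 10.53. BTLA, an inhibitory receptor found also on less differentiated T cells, was at 6.14 and 5.89 against 4.42 and 4.43, a change of -1.59 ± 0.34 with a clear gap between the groups. PD-L1 (Cd274) was at 5.67 and 5.32 against 4.78 and 4.40. Of 12 tested genes of this list, 1 was higher and 5 were lower in both experiments (8.33% and 41.7%, against 27.9% and 25.4% of all genes), and 6 went opposite ways. The median was -0.11, or -0.22 without the LAG3+ or without the double-positive array of experiment 1. It lay between -0.24 and 0.06 under the alternative settings, so its direction was not kept in all of them. Costimulators outside the TNF receptor family were mostly lower, 7 of 11 in both experiments and 1 higher (63.6% and 9.09%). Their median was -0.43, or -0.17 without the double-positive array of experiment 2. CD28, the main costimulatory receptor, was at 7.81 and 7.36 against 7.26 and 5.75, and ICOS changed by -0.58 ± 0.35.

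EGR2 is a transcription factor of T cell anergy that is known to act on the genes of both LAG3 and 4-1BB. Egr2 was at 5.95 and 5.67 in LAG3+ and 4.76 and 4.99 in double-positive cells, a change of -0.94 ± 0.40, whereas the dim Egr3 changed by 0.29 ± 0.30 and Egr1 by -0.37 ± 0.62. Nrgn, a calmodulin-binding protein, was at 5.81 and 5.68 against 6.69 and 7.97 (1.59 ± 0.45), and its change was 0.95 without the double-positive array of experiment 2. Diacylglycerol kinase alpha (Dgka), which dampens signals of the T cell receptor, was at 8.56 and 8.09 against 7.51 and 7.54, with -0.96 on a second probe. Over 18 tested EGR, NR4A and anergy genes, 4 were higher and 7 lower in both experiments, with a median of -0.06 that lay between -0.08 and 0.14 with 1 array left out. The signalling chain of the T cell receptor was lower more often than higher, 11 against 1 of 26, by small amounts. Its median was -0.14 and lay between -0.31 and 0.03 under the alternative settings, so its direction was not kept in all of them.

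Of 13 tested transcription factors of effector and exhausted cells, 6 were higher and 3 lower in both experiments. Irf8 had the highest change, at 8.29 and 7.73 in LAG3+ and 9.02 and 8.81 in double-positive cells (0.91 ± 0.35). T-bet (Tbx21), Eomes, Irf4 and Batf, the factors most tied to effector function and exhaustion among those tested, changed by 0.15 ± 0.43, 0.20 ± 0.35, -0.02 ± 0.54 and -0.02 ± 0.57. The probe of Tox did not enter the test.

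Ribosome biogenesis was the list with the highest median among those of at least 5 tested genes. Of 27 tested genes, 18 were higher and 0 lower in both experiments (66.7% and 0.0%, against 27.9% and 25.4% of all genes). The median change was 0.48, with 0.41 in experiment 1 and 0.57 in experiment 2, and between 0.28 (without the LAG3+ array of experiment 2) and 0.73 under all alternative settings. Beside Pes1, the processing factor Rrp12 was at 5.85 and 5.21 in LAG3+ and 6.66 and 6.60 in double-positive cells (1.10 ± 0.43). Fibrillarin (Fbl), the methyltransferase of ribosomal RNA, was at 8.66 and 8.61 against 9.32 and 9.80 (0.93 ± 0.37), and nucleolin (Ncl) at 7.81 and 7.47 against 8.39 and 8.46 (0.78 ± 0.30). Bop1, which forms a complex with the Pes1 protein, was at 7.17 and 7.55 against 7.82 and 8.08. The structural proteins of the cytosolic ribosome did not share this pattern in their counts, with 13 of 61 higher and 16 lower in both experiments and a median of -0.05 that lay between -0.08 and 0.08 with 1 array left out.

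The aminoacyl-tRNA synthetases, which charge tRNAs for translation, had 12 of 17 tested genes higher and 2 lower in both experiments (70.6% and 11.8%) and a median of 0.32, which was 0.19 and 0.21 without the LAG3+ array of experiment 1 and of experiment 2. Lars was the highest, at 5.36 and 5.09 against 6.78 and 6.03 (1.18 ± 0.45), and Farsb was at 9.91 and 9.28 against 10.33 and 10.26. Glycolysis and glucose uptake had 9 of 18 higher and 3 lower, with a median of 0.33, which was 0.16 and 0.54 without the same arrays. The glucose transporter GLUT3 (Slc2a3) was at 8.57 and 8.30 against 9.66 and 9.02, the glycolytic enzyme Tpi1 at 11.52 and 11.34 against 12.18 and 12.48 (0.90 ± 0.31), and pyruvate kinase (Pkm) at 10.26 and 10.26 against 10.80 and 10.88. Genes of DNA replication were higher in 19 and lower in 7 of 40, with a median of 0.22. Mitotic genes were at 13 and 9 of 48, with a median of 0.03. With 1 array left out the replication median lay between 0.10 (without the double-positive array of experiment 1) and 0.25, and the mitotic median between -0.13 (without the same array) and 0.28 (without the double-positive array of experiment 2, where it was above the replication median of 0.20). All these medians were taken with arrays normalized to the same distribution. Scaled to equal medians instead, the median over all genes moved to 0.12.

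Interferon-stimulated genes lay on the lower side. Of 33 tested, 19 were lower and 2 higher in both experiments (57.6% and 6.06%, against 25.4% and 27.9% of all genes). The medians were -0.16 in experiment 1, -0.45 in experiment 2 and -0.36 for both, the last between -0.41 and -0.17 under all alternative settings. Ifi27l2a was at 8.44 and 8.77 in LAG3+ and 7.04 and 7.80 in double-positive cells, and the transcription factor Irf1 at 10.98 and 10.98 against 10.40 and 10.27 (-0.64 ± 0.31). Markers of some other cells also lay on the lower side. Class II and dendritic cell markers were lower in both experiments for 4 of 5 tested genes (80%, against 25.4% of all genes). Their median levels were 7.20 and 6.10 in LAG3+ and 6.18 and 5.80 in double-positive cells, and 0 of the 5 were free of overlap. The median change of -0.53 rested on single arrays. It was -0.05 without the LAG3+ array of experiment 1 and -0.10 without the double-positive array of experiment 2. Macrophage markers were lower for 4 of 7, Lyz1 among them at 8.18 and 7.20 against 5.74 and 6.31, and Cd79b, the only tested B cell marker, was at 5.03 and 6.34 in LAG3+ cells and not detected in double-positive cells. Their part in the lower interferon-stimulated genes was not tested. In a sorted pool, fewer cells of a type and less RNA per cell cannot be told apart.

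Melanoma genes differed more between experiments than between populations. Over 6 tested markers the median level was 5.88 and 7.88 in LAG3+ and 5.21 and 7.99 in double-positive cells, so tumor transcripts were brighter in experiment 2 in both. The melanosome gene Pmel was at 5.82 and 8.63 against 5.76 and 9.45. Their part in the changes above was not tested. Regulatory T cell genes were dim, with Foxp3 at 4.96 and 5.19 against 4.54 and 4.99.

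**Figure D5:**
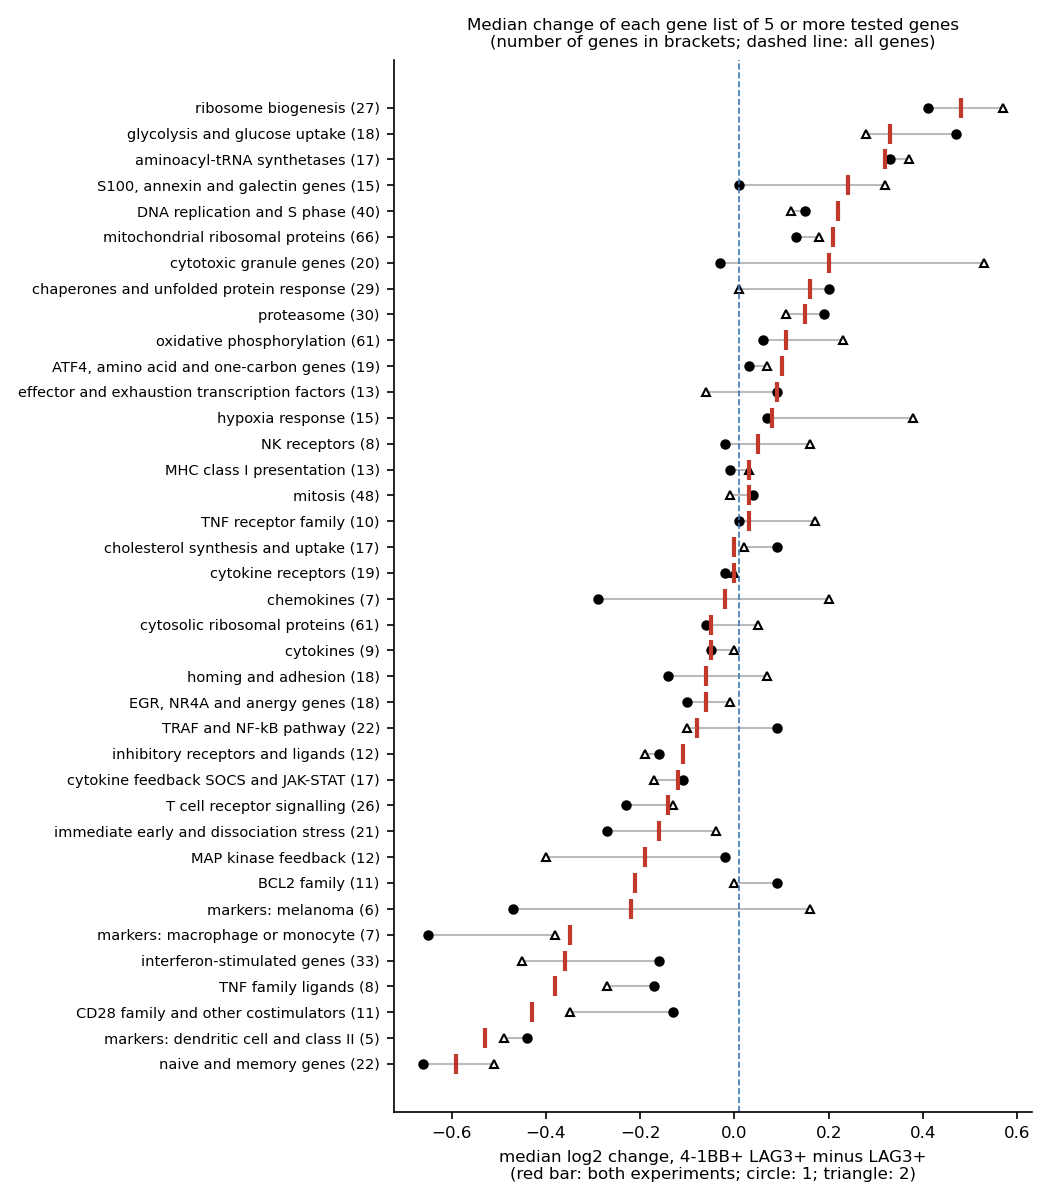
Median log2 change from LAG3+ to double-positive cells (x axis) for each gene list of at least 5 tested genes, with the number of genes in brackets, a red bar for both experiments, circles for experiment 1, triangles for experiment 2 and a dashed line at the median of all genes. Ribosome biogenesis (0.48) stands at the top and the naive and memory genes (-0.59) at the bottom, each with both experiments on the same side.

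Over all 8 arrays, the genes whose profile correlated most with Tnfrsf9 were Serpinb6b (r = 0.977), Birc5 (0.970), Galk1 (0.968), Mtch1 (0.965) and Anxa2 (0.958). The 8 arrays share populations and experiments, so these values only describe. Serpinb6b, a serine protease inhibitor, was at 6.14 and 6.17 in LAG3+ and 6.73 and 6.90 in double-positive cells. Birc5, which encodes the cell division protein survivin, was at 5.61 and 5.28 against 5.99 and 5.77. Other, dimmer Birc5 probes each changed by 0.05 and went opposite ways in the experiments. Anxa2, a membrane-binding annexin, was at 12.35 and 12.28 against 12.83 and 12.71. None of the 5 differed between LAG3+ and double-positive cells by more than 0.66 on the log2 scale.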

How the data were processed

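The 8 arrays are 1-colour Illumina mouse bead arrays of Cy3-labelled total RNA, per the labels. The authors deposited unnormalized probe intensities and a detection p-value per probe, per the file headers, and a second table of normalized intensities for which no source used here states the method. Probes were named through the platform's annotation and RefSeq gene names (GRCm38.p6). Of 25697 probes, 23962 had their symbol updated by gene identifier, 16 kept the platform's symbol, 1038 were named by accession and 681 by the deposited table, which gave 17830 names. RefSeq coordinates were used for promoter sequences only, and motifs were sought on both strands of the 250 bases before each start site, with Biopython 1.88 for the alignment.

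Intensities were background-corrected and quantile-normalized on the log2 scale with neqc (limma 3.58.1, R 4.3.3, offset 16, negative controls inferred from the deposited detection p-values). The brightest probe stood for a gene. Genes detected at p under 0.05 on at least 2 of 8 arrays entered the test (7893 kept, 9937 left out). Changes were tested two-sided with lmFit and eBayes of limma. The model had a mean for each of the 4 populations, used all 8 arrays and left out the experiment number, which gave 4 residual degrees of freedom and 2.98 from the prior, with Benjamini-Hochberg adjustment over all genes. The median standard error was 0.448, and the number of arrays limits the precision. Where both arrays of a population lacked detection, the fold is a lower bound ("at least") within this normalization only. It was taken against the higher of each array's lowest detected signal and the probe's own signal.

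The experiment number in the titles pairs the arrays. Deviations of same-numbered LAG3+ and double-positive arrays from their population means correlated at r = 0.195 across genes, and at 0.092 to 0.222 over all 6 pairs of populations. Since each array is a pool of mice, p-values reflect differences between pools, not animals. The members, gene lists and the rule for named genes were chosen with earlier results of these data known. The rule names the genes of the sort, the 15 highest and 15 lowest concordant changes among genes detected on both arrays of the brighter population, up to 3 highest and 3 lowest of each list with members whose role is explained, and the 5 genes most correlated with Tnfrsf9. Lists are described by counts and medians without a set test. A gene of the lowest ranked set is not reported here.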

Additional observations from a re-analysis of the deposited data

How the results depend on the processing

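All 22 alternative settings kept the direction of Tnfrsf9 (1.00 to 1.62), Tnfrsf4 (0.98 to 1.65) and the 30 ranked genes wherever the gene was tested. The ranked genes were chosen for large changes on these same arrays, so their kept direction is no independent support. Several settings, such as the block, altered only the fit or the filter and could not move a change. The count of called genes was 0 in both directions in 20 of them. The authors' normalized values called 2 genes higher (Lgi2 and Unc13b) and 1 lower (Sema4f). No filter on dim probes called 1 higher (Lgi2, limma adjusted p = 0.0287). The count of genes at least 2-fold higher and lower in both experiments (58 and 64) became 4 and 6 by quantile normalization without background correction, 10 and 19 with an offset of 50, 128 and 128 by the authors' values, 110 and 40 with equal medians, and 35 and 31 among genes detected on all 4 arrays, where fewer genes were tested. For the others the cause was not tested. With the experiment as a replicate block, Tnfrsf9 stayed at 1.27 and 0 genes were called, with a smallest adjusted p of 1.0, so the block changed no call. Array weights gave a smallest adjusted p of 0.174. Leaving out 1 array at a time gave 0 calls each time, and Tnfrsf9 lay between 1.21 and 1.33 and Tnfrsf4 between 1.03 and 1.57. Counts over both experiments could not be computed where a LAG3+ or double-positive array was left out. Dim genes limit the depth of this comparison, since the offset compresses changes near the level of no signal.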

Other observations

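Mitochondrial and protein turnover genes had more members higher than lower in double-positive cells, with small median changes. Over all genes, 27.9% were higher and 25.4% lower in both experiments. Of 61 tested oxidative phosphorylation genes, 27 were higher and 4 lower (44.3% and 6.56%), with a median of 0.11 (0.06 to 0.32 with 1 array left out). This median is no larger than the 0.12 to which all genes moved when arrays were scaled to equal medians. Of 66 mitochondrial ribosomal proteins, 26 were higher and 11 lower (39.4% and 16.7%), with a median of 0.21 (0.12 to 0.24 with 1 array left out). Mrpl46, a protein of the large mitochondrial ribosomal subunit, was at 7.0 and 7.03 in LAG3+ and 7.89 and 8.10 in double-positive cells (0.97 ± 0.41). Proteasome genes were higher for 16 and lower for 5 of 30 (53.3% and 16.7%), with a median of 0.15 (0.10 to 0.19 with 1 array left out). Asparagine synthetase (Asns), a target of the amino acid response, was at 7.68 and 6.81 against 8.37 and 8.68 (1.28 ± 0.42, another probe 0.76). Of 19 tested ATF4, amino acid and one-carbon genes, 7 were higher and 5 lower in both experiments, with a median of 0.10. Among the lower was the dim Chac1, at 4.95 and 4.99 against 4.31 and 4.10. The metallothionein Mt1 was at 10.00 and 10.24 against 10.99 and 11.44.

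Immediate early genes, which cell handling can induce, were lower for 10 and higher for 5 of 21, with a median of -0.16 (-0.30 to 0.15 under the alternative settings, so without a kept direction). Fosb, a subunit of AP-1, was at 7.08 and 7.73 in LAG3+ and 5.84 and 6.48 in double-positive cells (-1.25 ± 0.42), and Zfp36l1, which destabilises mRNAs, at 9.97 and 10.06 against 9.27 and 8.81. The Fc receptor gamma chain (Fcer1g), a signalling adaptor of innate-like lymphocytes and myeloid cells, was at 5.79 and 4.91 against 7.02 and 6.24. Tyrobp, an adaptor of the same cells, was detected on 0 of the 4 arrays. Of 3 tested NK cell markers, Tyrobp among them, 2 were higher and 0 lower in both experiments, with a median change of 0.18. Their median levels were close to no signal, at 4.37 and 4.19 in LAG3+ and 4.3 and 4.46 in double-positive cells. BCL2 family genes, which 4-1BB signalling is known to affect, were even, with 3 of 11 higher and 3 lower and a median of -0.21, though the medians of the single experiments were 0.09 and 0.00, and Mcl1 was at 9.09 and 9.10 against 8.93 and 8.44.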
